A study of Mus musculus with 4 samples.

Results

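Aminoacyl tRNA synthetases attach each amino acid to its tRNA, the step that supplies the ribosome with charged tRNA. The genes described here are 35 synthetase genes, 20 for the cytosolic enzymes and 15 for the mitochondrial ones, out of 31829 gene names on the array. They were found by name among the probes that are not control spots. The mitochondrial group holds the names that end in 2. The members were measured by 43 probes, of which 41 were tested. Of the 35 genes, 34 were tested, because the only Nars2 probe was well above background on none of the 4 arrays.

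The imatinib group is made of splenocytes kept for 72 h with 10 µM Imatinib in medium that holds IL-4 and LPS, and the control group had the same medium and time without the drug. The donors of both groups were C57BL/6 females aged 8 weeks. IL-4 with LPS stimulates B cells to divide and switch antibody class, and imatinib blocks tyrosine kinases such as ABL, KIT and the PDGF receptors. The study used the arrays to look for the pathway by which imatinib acts on class switching. Each group has 2 arrays (Agilent, 1 colour). Nothing in the labels ties the samples of a group to separate mice or cultures, so p-values measure the spread between these arrays only, which may be technical. The labels name no sort for B cells, and in such bulk RNA fewer cells of a type and less RNA per cell cannot be told apart.

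On the arrays, 25192 and 26762 probes with imatinib and 25336 and 25018 without were well above background, and no spot was saturated. Across all genes tested, 21.7% were lower and 19.5% higher with imatinib at an adjusted p under 0.05 (limma, Benjamini-Hochberg over all 25375 probes tested), and the median log2 difference was 0.01. Markers of several cell types differed between the groups in the same arrays. Of 15 T cell markers 13 rose and none fell, with a median log2 difference of 2.05 and a summed signal, relative to the array's 75th percentile, of 58.9 and 59.2 with imatinib, against 28.1 and 27.1 in control. Of 15 macrophage markers 10 were tested, 5 rose and 1 fell (summed signal 7.12 and 7.59 with imatinib, against 7.17 and 6.74 in control). C1qa, C1qc, Cd163, Fcgr1 and Mertk were not above background on any array. The brightest markers weigh most in such sums. Adgre1, Lyz2, Cd14, Mrc1 and Cd68 rose by 3.60, 2.81, 1.66, 1.63 and 0.52 on the log2 scale, while Itgam, the brightest macrophage marker in control, differed by -1.12. Of 14 B cell markers 4 rose and 6 fell, with summed signals of 461 and 467 with imatinib and 488 and 461 in control. Of 12 neutrophil markers 9 were tested, 6 rose and 1 fell (86.0 and 88.2 with imatinib, against 79.3 and 67.0 in control), with Ngp and Mmp9 at background throughout. Csf3r, the brightest neutrophil marker, differed by 0.27 without passing, while the median log2 difference of the 9 was 0.95. Of 8 erythroid markers 4 were tested and 2 rose (2.06 and 2.12 with imatinib, against 1.48 and 1.50 in control). The part of these cell types in the values below was not tested.

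The enzymes fall into a cytosolic and a mitochondrial set, encoded by different nuclear genes for most amino acids. Gars and Kars each encode the enzyme of both compartments, and Eprs joins the glutamyl and prolyl enzymes in a single protein. In the cytosol the enzymes for arginine, aspartate, glutamate and proline, glutamine, isoleucine, leucine, lysine and methionine sit in a multisynthetase complex held by the scaffold proteins encoded by Aimp1, Aimp2 and Eef1e1. In mouse cells, several cytosolic synthetase genes are targets of ATF4, a transcription factor that is translated when amino acids are short or unfolded proteins build up. Activated B cells enlarge and raise protein synthesis, which consumes charged tRNA.

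The cytosolic synthetase genes fell with imatinib as a broad set of modest changes. Of the 20 genes, 13 fell, none rose and 7 did not pass, against 21.7% lower and 19.5% higher among all genes tested. Their median log2 difference was -0.39, against 0.01 over all genes tested. Both imatinib arrays lay below both control arrays for 16 of the 20 genes and above them for 2, where all genes tested gave 37.2% and 35.5%. No member changed 2-fold, and the ratios of imatinib over control ran from 0.573 for Rars to 1.27 for Sars. The mean normalised log2 signal over the 20 genes was 2.61 on each imatinib array, against 3.0 and 2.97 in control. On this scale 0 is the 75th percentile of the array, and SD and SE are in log2 units throughout.

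**Figure D1:**
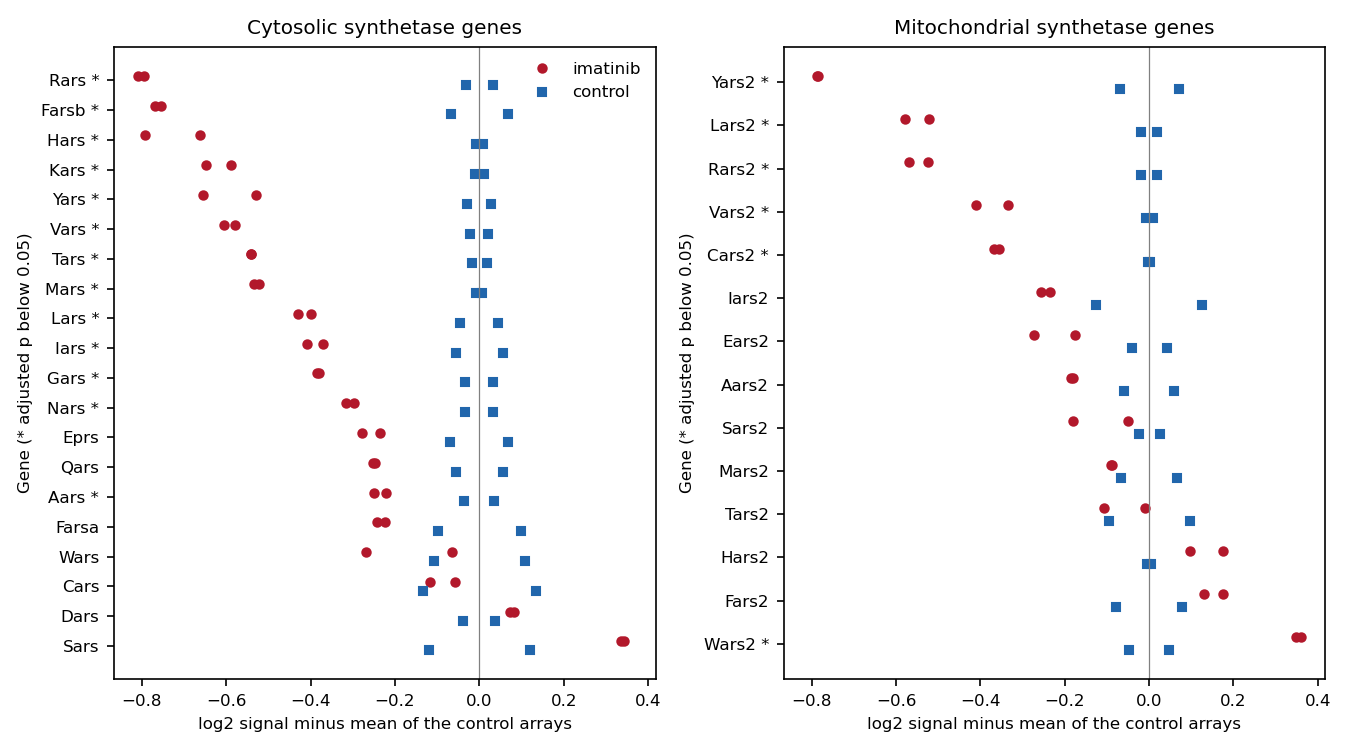
Normalised log2 signal of each synthetase gene on each array minus the mean of its 2 control arrays, with cytosolic genes on the left and mitochondrial genes on the right. Red circles are the 2 imatinib arrays, blue squares the 2 control arrays, and an asterisk marks an adjusted p under 0.05; the imatinib arrays of 16 cytosolic and 10 mitochondrial genes lie below both control arrays, and those of Sars and Wars2 lie farthest above.

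Rars, the arginyl enzyme of the complex, had the largest fall among the cytosolic genes on the probe that stands for each gene. Its normalised log2 signal was -1.90 and -1.91 with imatinib, against -1.13 and -1.07 in control, which is a difference of -0.80 (SE 0.061, adjusted p = 0.0031, limma). The groups lay far apart relative to the gaps between arrays of a group. Farsb, the beta subunit of the phenylalanyl enzyme, had 2.23 and 2.25 with imatinib and 2.93 and 3.07 in control, a difference of -0.76 (SE 0.074, adjusted p = 0.0051, limma). Hars, the histidyl enzyme, had 0.81 and 0.94 with imatinib, against 1.60 and 1.62 in control (difference -0.73, SE 0.073, adjusted p = 0.0055, limma). For Farsb the control arrays were farther apart than the imatinib arrays, and for Hars the imatinib arrays were.

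Kars, the lysyl enzyme, which both the cytosol and mitochondria use, had 4.62 and 4.68 with imatinib and 5.28 and 5.26 in control, a difference of -0.62 (SE 0.060, adjusted p = 0.0052, limma). Vars, the valyl enzyme, had 2.89 and 2.91 with imatinib, against 3.52 and 3.47 in control, a difference of -0.59 (SE 0.059, adjusted p = 0.0054, limma). The calls for Rars, Farsb, Hars, Kars and Vars held under all 14 alternative settings tried, with 0.046, for Vars, as the highest adjusted p. Yars, the tyrosyl enzyme, had -2.63 and -2.50 with imatinib, against -2.00 and -1.95 in control, a difference of -0.59 (SE 0.074, adjusted p = 0.0085, limma). Tars, the threonyl enzyme, had 4.01 and 4.02 with imatinib, against 4.57 and 4.54 in control, a difference of -0.54 (SE 0.058, adjusted p = 0.0062, limma). Mars, the methionyl enzyme, which also charges the initiator tRNA, had 1.84 and 1.85 with imatinib, against 2.37 and 2.38 in control, a difference of -0.53 (SE 0.057, adjusted p = 0.0063, limma). The groups of these 3 genes did not overlap, but their calls ended without imatinib 1 (adjusted p 0.050 to 0.053), and those of Tars and Mars also without imatinib 2.

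The remaining falls among the cytosolic genes were smaller. Lars (leucyl), Iars (isoleucyl), Gars (glycyl), Nars (asparaginyl) and Aars (alanyl) fell by 0.41, 0.39, 0.38, 0.31 and 0.24 on the log2 scale, with adjusted p of 0.0135 to 0.047. All of them had both imatinib arrays below both control arrays, and all 5 lost the call without imatinib 1 and without imatinib 2 (adjusted p up to 0.223). Nars also lost it without control 2, as did Iars, and Aars without either control array. Gars had 6.16 and 6.17 with imatinib, against 6.51 and 6.58 in control, and its imatinib arrays lay closer together than its control arrays.

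7 of the cytosolic genes did not pass, and they did not lie on one side of 0. Differences of -0.26 for Eprs (adjusted p = 0.060), -0.25 for Qars (adjusted p = 0.0503) and -0.23 for Farsa (adjusted p = 0.11) came with imatinib arrays below the control arrays. Wars, the tryptophanyl enzyme, had 3.70 and 3.49 with imatinib, against 3.87 and 3.65 in control, and Cars, the cysteinyl enzyme, had 4.64 and 4.58 with imatinib, against 4.83 and 4.56 in control; the groups of both genes overlapped. Dars, the aspartyl enzyme of the complex, had 0.77 and 0.76 with imatinib, against 0.73 and 0.65 in control, a difference of 0.08 that was -0.11 by median centring and -0.20 by spike-in spots. Sars, the seryl enzyme, had 5.08 and 5.08 with imatinib, against 4.86 and 4.62 in control. Its difference of 0.34 (SE 0.10, adjusted p = 0.062, limma) did not pass, and the SD was 0.169 between the control arrays. It stayed above 0 in every alternative, from 0.06 under spike-in scaling to 0.46 without control 1, and passed in 4 of the 14.

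The count of falling cytosolic genes was 13 with all 4 arrays and lower with any array left out. It came to 5 and 6 when imatinib 1 or imatinib 2 was left out, and to 12 and 10 when control 1 or control 2 was, where all genes tested gave 5.84%, 6.10%, 15.7% and 14.2% lower. Median centring called 16 cytosolic genes lower, with a median of -0.57, beside 35.3% of all genes. Scaling on the spike-in spots called 18 lower, with a median of -0.67, beside 45.0% of all genes. Both scalings also moved the split over all probes, with 9251 lower and 3305 higher by median centring and 11739 and 2802 by spike-in spots, against 5717 and 4905 here, and normexp background correction gave 5958 lower and 6665 higher. The T cell marker signal given above was higher on both imatinib arrays, and its part in these falls was not tested.

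Genes that fell were found both among the enzymes of the multisynthetase complex and among the free enzymes. Of the 8 enzymes of the complex, 5 fell and none rose, against 21.7% lower and 19.5% higher among all genes tested, with a median difference of -0.40. Of the 12 other cytosolic genes, 8 fell and none rose, with a median of -0.34. The 12 genes known as ATF4 targets in mouse cells had 8 falls and a median of -0.34, and the 8 cytosolic genes not known as such had 5 falls and a median of -0.61, beside the same 21.7% of all genes. Neither difference between these groups of members was tested.

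Among the mitochondrial synthetase genes, falls, a rise and genes that did not pass stood side by side. Of the 14 tested, 5 fell, 1 rose and 8 did not pass, against 21.7% lower and 19.5% higher among all genes tested, with a median log2 difference of -0.20. Both imatinib arrays lay below both control arrays for 10 genes and above them for 3, where all genes tested gave 37.2% and 35.5%. Their mean normalised log2 signal was 0.42 and 0.42 with imatinib, against 0.62 and 0.62 in control. The falls numbered 3 and 1 when imatinib 1 or imatinib 2 was left out, beside 5.84% and 6.10% of all genes. They numbered 5 and 4 when control 1 or control 2 was left out (15.7% and 14.2% of all genes), and 9 and 11 with median centring and spike-in spots (35.3% and 45.0%). The rise was not called without imatinib 1, imatinib 2 or control 2, nor under either of these scalings.

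Yars2, the mitochondrial tyrosyl enzyme, had the largest fall of this set. Its normalised log2 signal was 0.39 and 0.39 with imatinib, against 1.11 and 1.25 in control, a difference of -0.79 (SE 0.075, adjusted p = 0.0049, limma), a call that held in all 14 alternatives. Lars2 (leucyl) had 0.52 and 0.46 with imatinib, against 1.02 and 1.06 in control (difference -0.55, SE 0.061, adjusted p = 0.0067, limma). Rars2 (arginyl) had 1.93 and 1.89 with imatinib, against 2.44 and 2.48 in control (difference -0.55, SE 0.060, adjusted p = 0.0065, limma). The groups of these 3 genes did not overlap; the calls for Lars2 and Rars2 ended without imatinib 2 (adjusted p = 0.053 each). Vars2 (valyl) and Cars2 (cysteinyl) fell by 0.37 and 0.36 on the log2 scale, with adjusted p of 0.0157 and 0.0132, and lost the call without imatinib 1 and without imatinib 2. Both also lost it without the filter on dim probes, and Vars2 without control 1 and without control 2. Cars2 lost it with the replicate block (adjusted p = 0.0502) and differed by -0.09 over the mean of its 2 probes (adjusted p = 0.251).

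Wars2, the mitochondrial tryptophanyl enzyme, was the member that rose. It had -1.72 and -1.71 with imatinib, against -2.02 and -2.11 in control, a difference of 0.35 (SE 0.066, adjusted p = 0.0196, limma). The imatinib arrays lay above both control arrays. The call did not hold under median centring (difference 0.17) or spike-in scaling (0.07), nor on the other Wars2 probe. Hars2 (histidyl) and Fars2 (phenylalanyl) differed by 0.14 and 0.15 without passing, and both were below 0 under median centring and spike-in scaling. Iars2 (isoleucyl), Ears2 (glutamyl), Aars2 (alanyl), Sars2 (seryl), Mars2 (methionyl) and Tars2 (threonyl) differed by -0.25, -0.22, -0.18, -0.12, -0.09 and -0.06, with adjusted p of 0.075 to 0.65. Nars2 had -6.92 and -8.44 with imatinib and -7.91 and -8.48 in control, all at background, and gives no measure of its level.

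Set side by side for the same amino acid, the cytosolic gene had the lower difference in 11 of 15 pairs, which involve 14 mitochondrial genes because Farsa and Farsb both pair with Fars2. The widest gaps were those of Farsb, at -0.76 beside 0.15 for Fars2, and Hars, at -0.73 beside 0.14 for Hars2. Hars and Hars2 are next to each other in the RefSeq gene table. Lars, Yars, Cars and Sars were the cytosolic genes with the higher difference of their pair, with Sars at 0.34 beside -0.12 for Sars2. The gaps within pairs were not tested.

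**Figure D2:**
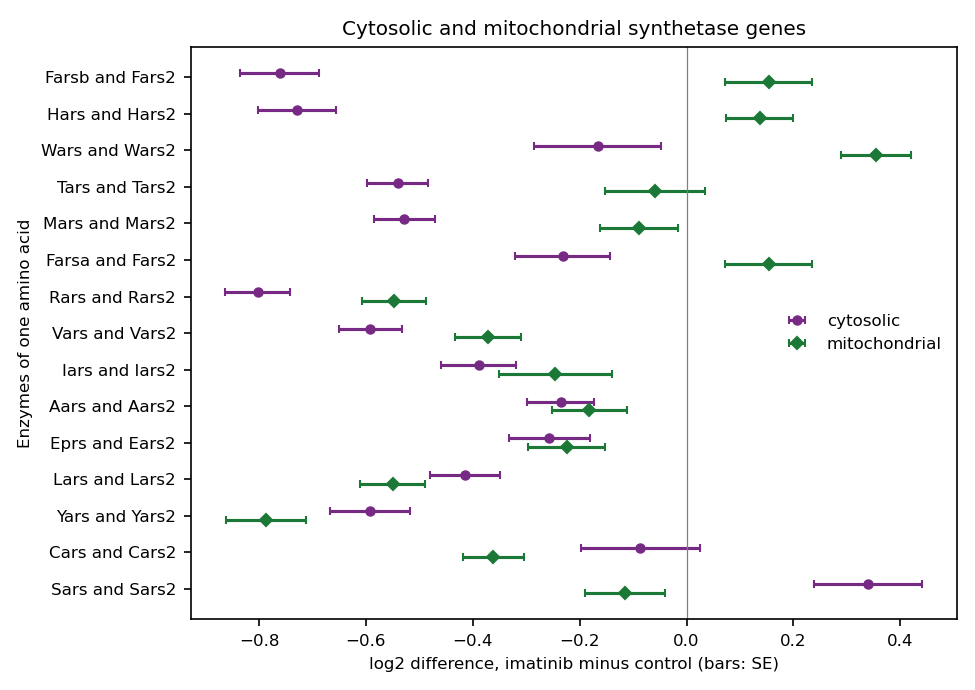
Log2 difference, imatinib minus control, of the cytosolic (circles) and mitochondrial (diamonds) synthetase gene for each amino acid, with SE from the limma fit as bars, ordered by the gap within the pair. The cytosolic circle lies left of the mitochondrial diamond in 11 of 15 pairs, most widely for Farsb and Fars2, and right of it for Lars, Yars, Cars and Sars.

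Some members were measured by more than 1 probe, and these did not always give the same answer. Of the 41 tested member probes, 22 were lower and 1 higher with imatinib, against 22.5% and 19.3% of all probes tested. Among the 8 genes with 2 probes, the second Aars probe was above background on 2 arrays, 1 of each group, and was not tested. The second Wars probe, A_55_P2082902, fell by 0.84 (SE 0.059, adjusted p = 0.0026, limma), with -1.04 and -1.09 on the imatinib arrays and -0.22 on each control array, while the brighter probe A_55_P1972275 differed by -0.17. The Wars fall on this probe was larger than that of any other tested member probe.

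For Farsa and Tars2 the second probe fell by 0.51 and 0.35 where the brighter one did not pass, and for Vars2 both probes fell, the second by 0.65. For Cars2 and Iars2 the second probe differed by 0.17 (adjusted p = 0.099) and 0.22 (adjusted p = 0.071), on the other side of 0 from the brighter probe. The second Wars2 probe differed by -0.01. No pair of probes of a gene shared a run of more than 6 bases, so their sequences differ. Which stretch or variant of a transcript each probe reads was not determined. None of the 43 member probes held a repeat of a 2-base or 3-base unit of 12 bases or more.

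**Figure D3:**
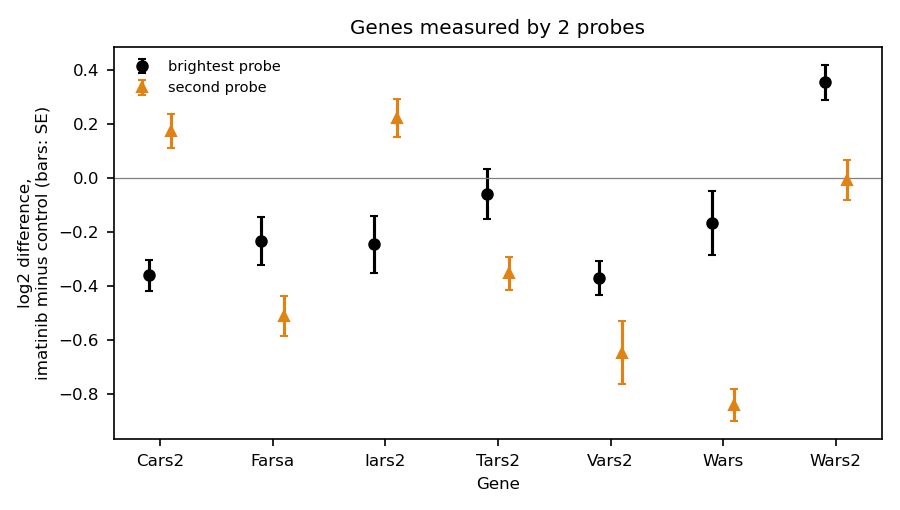
Log2 difference, imatinib minus control, for the 7 synthetase genes with 2 tested probes, with SE from the limma fit as bars. Black circles are the brightest probe, which stands for the gene in the counts, and orange triangles the second probe; the probes lie on opposite sides of 0 for Cars2, Iars2 and Wars2, and the second Wars probe lies lowest.

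Because several cytosolic genes are known ATF4 targets and moved together, their promoters were read from RefSeq (GRCm38.p6), from 250 bases before to 50 after the start of the gene. Windows were matched for 27 of the 35 members. The letters TGATGNAA, the core of the composite element of ATF4 and CEBP factors, were searched on both strands, as was the E box CACGTG, which Myc and Max bind. The core was found in 5 of 13 cytosolic genes with a window (38.5%), in none of 14 mitochondrial genes, and in 4.51% of all 27025 genes in the table. The E box was found in 4 of the 13 cytosolic genes (30.8%), in 1 of the 14 mitochondrial genes, Ears2, and in 8.09% of all genes. A match is a description of the letters and not a site shown to be bound, and the matches of the 2 motifs in member windows did not overlap.

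The stretches below run 5′ to 3′ on the strand of the gene, from 130 bases before to 30 after the start, with matches to either motif in capitals. They are the 5 cytosolic promoters with the core (Aars, Yars, Tars, Iars and Gars), then Farsb, which has an E box and no core, and Sars, which has neither and did not fall. The core starts at positions -112 and 10 in Aars, 4 in Yars, -15 in Tars, 8 in Iars and -30 in Gars, counted from the start, with the first transcribed base as 1. E boxes in the stretches start at 20 in Tars, -69 in Iars and -39 in Farsb.
Aars, chr8:111033712-111033871, plus strand: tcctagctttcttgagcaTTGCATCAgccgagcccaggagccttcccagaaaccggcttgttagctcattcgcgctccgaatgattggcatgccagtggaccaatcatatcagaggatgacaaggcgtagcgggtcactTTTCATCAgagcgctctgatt
Yars, chr4:129189773-129189932, plus strand: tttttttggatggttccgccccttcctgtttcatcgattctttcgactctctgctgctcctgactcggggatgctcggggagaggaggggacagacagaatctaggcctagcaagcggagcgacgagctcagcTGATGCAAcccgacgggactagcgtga
Tars, chr15:11399629-11399788, minus strand: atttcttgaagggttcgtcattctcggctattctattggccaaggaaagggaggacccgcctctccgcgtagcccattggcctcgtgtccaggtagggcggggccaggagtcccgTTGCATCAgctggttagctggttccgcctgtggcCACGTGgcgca
Iars, chr13:49682000-49682159, plus strand: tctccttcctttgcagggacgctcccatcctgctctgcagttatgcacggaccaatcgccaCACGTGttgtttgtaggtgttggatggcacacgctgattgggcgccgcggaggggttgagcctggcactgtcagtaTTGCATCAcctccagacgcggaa
Gars, chr6:55037871-55038030, plus strand: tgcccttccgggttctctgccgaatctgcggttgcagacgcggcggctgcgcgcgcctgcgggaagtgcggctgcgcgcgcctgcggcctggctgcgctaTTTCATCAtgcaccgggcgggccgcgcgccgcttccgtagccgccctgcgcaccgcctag
Farsb, chr1:78488868-78489027, minus strand: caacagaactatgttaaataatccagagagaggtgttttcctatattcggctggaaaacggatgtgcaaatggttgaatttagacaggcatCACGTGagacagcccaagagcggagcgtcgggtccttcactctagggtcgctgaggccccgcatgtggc
Sars, chr3:108445230-108445389, minus strand: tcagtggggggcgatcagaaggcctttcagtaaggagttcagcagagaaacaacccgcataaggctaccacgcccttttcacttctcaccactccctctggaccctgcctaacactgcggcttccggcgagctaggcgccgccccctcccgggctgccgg

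All 5 genes with the core fell, by 0.24 for Aars, 0.59 for Yars, 0.54 for Tars, 0.39 for Iars and 0.38 for Gars on the log2 scale, with a median of -0.39. Of the 8 cytosolic genes with a window and no core, 3 fell (Farsb, Kars and Mars), beside 21.7% lower among all genes tested. The median of the 8 was -0.25, with Farsb at -0.76 and Sars at 0.34 as the extremes. No window was matched for Rars, Hars, Vars, Lars, Nars, Wars and Cars, so they are in none of these groups. Of them, Rars, Hars, Vars, Lars and Nars fell (-0.80, -0.73, -0.59, -0.41 and -0.31), and Wars and Cars did not pass. The 4 genes with the E box, Aars, Farsb, Tars and Iars, had a median of -0.47, and the 9 without it -0.26. No difference between these groups was tested.

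Among other ATF4 targets the balance of rises and falls turned with the scaling. Of 33 genes on a list of ATF4 and its targets, 14 rose, 6 fell and 13 did not pass, against 19.5% higher and 21.7% lower among all genes tested. Median centring gave 10 rises and 12 falls, beside 35.3% of all genes lower, and spike-in spots gave 9 rises and 15 falls, beside 45.0%. Of all 25375 probes tested, 3305 were higher by median centring and 2802 by spike-in spots, against 4905 here. The median difference was 0.13, and it was below 0 by median centring (-0.06) and spike-in spots (-0.15). Both scalings also lowered the median of all probes tested, to -0.19 and -0.28, which lies below that of the list. Stc2, a secreted glycoprotein of the stress response, had the largest rise, with -1.29 and -1.26 with imatinib, against -4.38 and -4.73 in control (difference 3.28, SE 0.13, adjusted p = 0.00096, limma). Nupr1, a stress-induced nuclear protein, and Vldlr, a lipoprotein receptor, rose by 2.06 and 1.82. Slc7a11, the cystine transporter, was not above background in control and was at least 1.30-fold higher with imatinib. Its probe passed the filter through the imatinib arrays only, and it is among the 14 rises. With only probes above background on all 4 arrays, 13 of 32 genes of the list rose and 6 fell. Over all 23952 such probes, 4658 were higher and 5931 lower.

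Ddit3, the factor CHOP, rose by 0.65 (SE 0.063, adjusted p = 0.0051, limma), whereas Atf4 itself fell, with a difference of -0.32 (SE 0.078, adjusted p = 0.036, limma). Atf4 had 1.62 and 1.65 with imatinib, against 1.88 and 2.03 in control; ATF4 is controlled mainly at translation, which the array does not read. Asns, asparagine synthetase, had 5.18 and 5.12 with imatinib, against 5.04 and 4.92 in control, a difference of 0.17 that did not pass (adjusted p = 0.13) and was below 0 with median centring (-0.02) and spike-in spots (-0.11). With imatinib 1 or imatinib 2 left out the median of the ATF4 list was 0.14 and 0.10, and with control 1 or control 2 left out 0.12 and 0.11. Fewer of its rises and falls were called with any array left out, as over all probes tested.

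Wars is known as a gene induced by interferon gamma, so a list of such genes was read beside it. Of 20 genes, 11 fell, 2 rose and 7 did not pass, with a median of -0.35, against 21.7% lower and 19.5% higher among all genes tested. Gbp2, an interferon-induced GTPase, had 3.24 and 3.22 with imatinib, against 4.38 and 4.45 in control, a difference of -1.18 (SE 0.062, adjusted p = 0.0014, limma). Cxcl10, a chemokine, fell by 1.00, and Ido1, an enzyme that breaks down tryptophan, was not above background with imatinib and was at least 2.61-fold lower. The Ido1 probe passed the filter through the control arrays only, and the gene is among the 11 falls. With only probes above background on all 4 arrays, 10 of 19 genes fell and 2 rose. Over all 23952 such probes, 5931 were lower and 4658 higher. Socs1, an inhibitor of cytokine signalling, rose by 1.21. With imatinib 1 or imatinib 2 left out the median of the list was -0.34 and -0.32, and with control 1 or control 2 left out -0.31 and -0.36. Fewer of its falls were called with any array left out, as over all genes tested. The Wars probes, at -0.17 and -0.84, did not give the gene a single value to set beside this list.

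**Figure D4:**
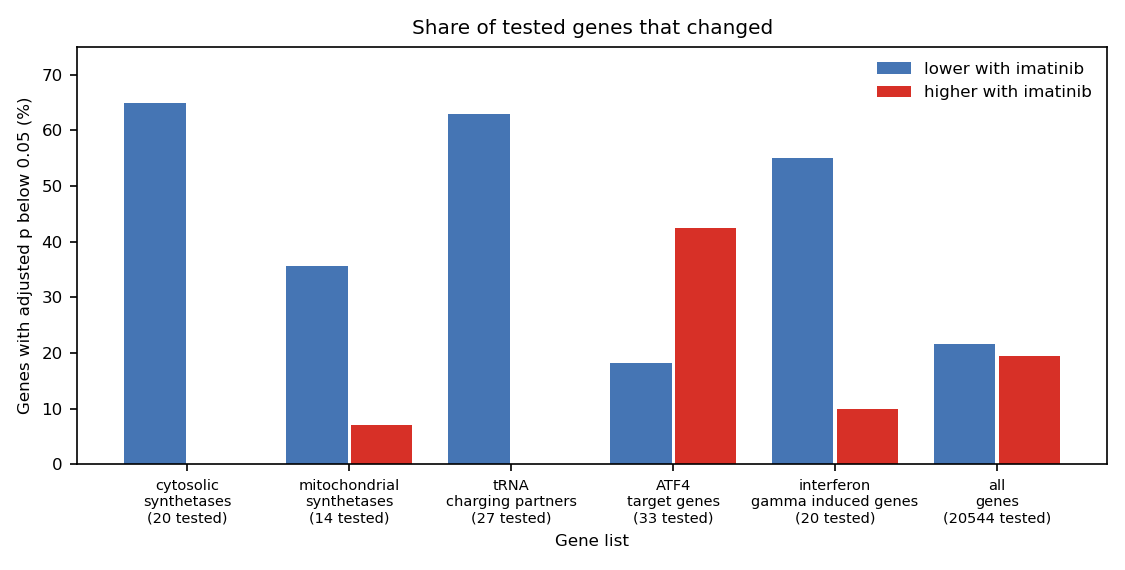
Share of tested genes, in percent, that were lower (blue) or higher (red) with imatinib at an adjusted p under 0.05, for each gene list, with all genes tested at the right. The cytosolic synthetases (13 of 20 lower) and the tRNA charging partners (17 of 27 lower) have no higher gene. The ATF4 target list has 14 of 33 genes higher and 6 lower, a balance that turned with median centring and with spike-in spots. Both scalings also lowered the median of all probes tested, to -0.19 and -0.28.

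Most genes of the proteins that work with the synthetases also fell. Of 27 partner genes, 17 fell, none rose and 10 did not pass, against 21.7% lower and 19.5% higher among all genes tested, with a median difference of -0.27. Among the scaffold genes of the multisynthetase complex, Eef1e1 had 0.27 and 0.22 with imatinib, against 0.86 and 1.10 in control, a difference of -0.73 (SE 0.103, adjusted p = 0.0109, limma). Aimp2 fell by 0.41 (SE 0.073, adjusted p = 0.018, limma), and Aimp1 differed by -0.21 (adjusted p = 0.073). Xpot, the export receptor that carries tRNA out of the nucleus, fell by 0.24.

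Larger falls among the partners were those of Sephs2, selenophosphate synthetase for selenocysteine tRNA, with -2.84 and -2.75 with imatinib, against -1.86 and -1.76 in control (difference -0.98, SE 0.073, adjusted p = 0.0030, limma), and of Tufm, the mitochondrial elongation factor that delivers charged tRNA, which fell by 0.87. Nsun2, a methyltransferase of tRNA, fell by 0.65, and Dtd1, which removes D-amino acids from tRNA, fell by 0.55. The cytosolic elongation factor genes Eef1a1, Eef1b2, Eef1d and Eef1g had differences of 0.17, 0.19, -0.19 and 0.02, none past the threshold. When imatinib 1 or imatinib 2 was left out, 3 partners fell in each case, beside 5.84% and 6.10% of all genes. With control 1 or control 2 left out, 8 and 9 fell, beside 15.7% and 14.2%.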

How the data were processed

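RNA of 2 imatinib and 2 control samples was measured on Agilent 1-colour (Cy3) arrays. Per the file headers, the authors made the deposited fluorescence intensity of each spot with Feature Extraction 9.1.3.1. The headers record spatial and multiplicative detrending as on and a separate background correction as off, and the processed signal is not scaled to other arrays. Per the series' design text, the authors took expression values from GeneSpringGX, and their deposited table of values is in log2 units. Each of its columns equalled log2 of the processed signal minus a constant within 0.01 for at least 99.881% of the probes, and the column medians were -3.99 and -3.92 (imatinib) and -4.10 and -4.17 (control).

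Values here start from the scanner files. Spots of a probe were averaged on the log2 scale without control spots and marked outliers, and the array's 75th percentile was subtracted (699 and 678 for imatinib, 739 and 854 for control). A probe was tested if well above background on both arrays of a group; of 25467 such probes, 92 were left out for a marked value. Groups were compared with limma 3.58.1 in R 4.3.3 (lmFit, eBayes; the term is the group; two-sided tests; 2 residual and 2.05 prior degrees of freedom). The adjusted p is Benjamini-Hochberg over all 25375 probes, with 0.05 as the threshold, and the fit was tested on simulated data. The brightest tested probe stands for its gene in counts. A gene above background in only 1 group is given as a bound against the lowest signal called well above background. Named genes are all members, fixed partners, and the largest called changes of each list, up to 4. The elongation factors Eef1a1, Eef1b2, Eef1d and Eef1g and the cell type markers given by name were named after their values were seen. The members, lists and motifs were chosen with earlier results of these data known. Alternatives covered scaling, background correction, the filter on dim probes, the variance model, the probe that stands for a gene, the replicate number, each array left out, and the deposited table. Probe sequences are not printed, since their place in the transcripts was not determined here. Precision is limited by having 2 arrays a group.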

Additional observations from a re-analysis of the deposited data

How the results depend on the processing

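The median of all probes tested moved by -0.07 under quantile normalization, -0.19 under median centring, -0.28 under spike-in scaling and 0.06 with normexp. The 4 arrays left out in turn gave 1555 to 4172 lower and 2417 to 4706 higher probes. They gave 5 to 12 lower and 0 to 1 higher cytosolic genes, 1 to 5 lower and 0 to 1 higher mitochondrial genes (median -0.21 to -0.169), and 3 to 9 lower partners (median -0.303 to -0.265). They gave 0 to 4 lower and 9 to 13 higher ATF4 targets, and 5 to 8 lower interferon genes; these fits have 1 residual degree of freedom fewer. Under quantile normalization 1 cytosolic gene was higher, with medians of -0.31 (cytosolic) and -0.28 (interferon). Median centring gave 9251 lower probes, 9 lower and 0 higher mitochondrial genes and 12 lower ATF4 targets, with medians of -0.573, -0.39, -0.452 (partners), -0.0558 (ATF4) and -0.535 (interferon). Spike-in scaling gave 11739 lower and 2802 higher probes, 11 lower and 0 higher mitochondrial genes, and 15 lower and 9 higher ATF4 targets. Its medians were -0.667, -0.484, -0.546, -0.15 and -0.63 in the same order. With normexp 1 cytosolic gene and 1 partner were higher, with medians of -0.169 (mitochondrial) and -0.235 (interferon). Without a filter on dim probes 2134 probes were lower and 2837 higher, with 8 lower cytosolic, 3 lower and 0 higher mitochondrial, 6 lower partner, 0 lower ATF4 and 6 lower interferon genes. Trend and robust fitting gave 1 higher cytosolic gene, 8 lower mitochondrial genes and 1 higher partner. The mean of all probes of a gene gave 0 higher mitochondrial genes and medians of -0.149 (mitochondrial) and -0.364 (partners). Same-numbered arrays did not deviate together (correlation -0.07), so the replicate number was kept out of the main design. As a replicate block it gave 3509 lower probes, 11 lower cytosolic genes, 4 lower and 0 higher mitochondrial genes, 9 lower partners and 1 lower ATF4 target. Signs turned, with no call on either side, for Cars (0.0469, and -0.221 without control 2) and Tars2 (0.037, and -0.155 without control 2) without control 1, and for Tars2 (0.0239) under quantile normalization. They also turned for Dars (-0.11 and -0.20), Fars2 (-0.0337 and -0.13), Hars2 (-0.0503 and -0.14) and Asns (-0.0163 and -0.11) under median centring and spike-in scaling. The causes were not tested.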

Other observations

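The files describe 7 further tested probes, outside the 35 names and the partner list, as synthetases or like them, of which 3 fell, none rose and 4 did not pass. Tarsl2, a threonyl synthetase-like gene, fell by 0.65 (SE 0.070, adjusted p = 0.0064, limma), with signals of -1.96 and -1.99 under imatinib, against -1.39 and -1.27 in control. Aarsd1, a protein with an alanyl synthetase domain, differed by 0.06 (adjusted p = 0.61). Pars2, the mitochondrial prolyl synthetase gene, which was counted among the partners, differed by -0.12 (adjusted p = 0.287, limma). A probe described as the alpha chain of the phenylalanyl enzyme under a transcript name fell by 0.42, between the values of the 2 Farsa probes. Of 2 probes described as similar to the lysyl enzyme, 1 fell by 0.60, beside -0.62 for Kars, and the other differed by -0.36 with overlapping groups (adjusted p = 0.525). Whether they read Kars transcripts was not tested. A probe described as similar to a valyl enzyme differed by 0.58 (adjusted p = 0.12). A probe described as the mitochondrial asparaginyl enzyme was above background on all 4 arrays, with -2.17 and -2.17 with imatinib, against -2.12 and -2.36 in control, unlike the Nars2 probe.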
